A study of Arabidopsis thaliana with 12 samples.

Results

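Arabidopsis seedlings take up nitrate through 2 families of membrane transporters, and 8 genes of nitrate transport and reduction are described here over the 4 groups of the series. They are the transporter genes NRT1.1, NRT1.5, NRT1.7, NRT1.8, NRT2.1 and NRT2.6 and the nitrate reductase genes NIA1 and NIA2, taken by their AGI codes from a table of 32678 genes. They were selected on results of these data: which measured values bore on the choice is not recorded, so their levels and their differences in all 5 comparisons are given as a description, without p-values. All 8 passed the filter on low counts in the fit over the whole table.

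RNA-seq read counts were made for whole seedlings of 4 groups with 3 libraries each. The groups were mapkkk5-1 seedlings treated with chitin, mapkkk5-1 seedlings with mock treatment, Col-0 wild-type seedlings treated with chitin, and Col-0 seedlings with mock treatment. mapkkk5-1 is a mutant of MAPKKK5, a MAP kinase kinase kinase gene, represented by this single allele. Chitin is a polymer of fungal cell walls that plants perceive as a sign of a fungus. All seedlings were 8 days old, had grown in MGRL medium with agarose and sucrose, were moved to liquid MGRL medium for 3 h and were then treated for 3 h. Replicate numbers 1 to 3 mark the libraries, and each number is taken here as 1 of the 3 experiments of the study.

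Nitrate enters root cells through low-affinity carriers of the NRT1 (NPF) family and high-affinity carriers of the NRT2 family. It is then loaded into the xylem and carried to the shoot, moved between leaves in the phloem, or reduced in the cell. Nitrate reductase makes nitrite in the cytosol, nitrite reductase makes ammonium in plastids, and glutamine synthetase binds the ammonium into glutamine. Many of these genes are known to respond to nitrate itself; the labels name no difference in nitrate supply between the groups.

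The regions just upstream of 4 members are shown because these genes form 2 pairs whose levels differed in opposite directions after chitin: NRT1.8 (higher) with NRT1.5 (lower), and NRT2.6 (higher) with NRT2.1 (lower). Each is the 300 bases before the annotated gene start, read 5′ to 3′ on the strand of the gene from the RefSeq assembly TAIR10.1, in lower case. Capitals mark the W-box core TTGAC, or GTCAA where it lies on the opposite strand; WRKY transcription factors are known to bind W-boxes. The windows are chr4:11519806-11520105 (minus strand) for NRT1.8, chr1:11719989-11720288 (minus strand) for NRT1.5, chr3:16479560-16479859 (minus strand) for NRT2.6 and chr1:2523723-2524022 (plus strand) for NRT2.1.
NRT1.8: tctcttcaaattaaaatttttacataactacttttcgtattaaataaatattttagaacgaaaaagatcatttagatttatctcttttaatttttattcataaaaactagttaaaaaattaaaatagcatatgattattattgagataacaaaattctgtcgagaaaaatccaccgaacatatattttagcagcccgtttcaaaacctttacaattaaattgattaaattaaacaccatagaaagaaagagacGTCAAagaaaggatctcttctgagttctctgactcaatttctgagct
NRT1.5: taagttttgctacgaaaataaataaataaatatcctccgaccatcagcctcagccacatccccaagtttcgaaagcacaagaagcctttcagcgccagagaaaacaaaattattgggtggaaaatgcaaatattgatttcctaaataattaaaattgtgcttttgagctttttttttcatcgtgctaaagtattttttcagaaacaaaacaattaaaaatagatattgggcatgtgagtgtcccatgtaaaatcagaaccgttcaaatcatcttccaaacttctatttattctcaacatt
NRT2.6: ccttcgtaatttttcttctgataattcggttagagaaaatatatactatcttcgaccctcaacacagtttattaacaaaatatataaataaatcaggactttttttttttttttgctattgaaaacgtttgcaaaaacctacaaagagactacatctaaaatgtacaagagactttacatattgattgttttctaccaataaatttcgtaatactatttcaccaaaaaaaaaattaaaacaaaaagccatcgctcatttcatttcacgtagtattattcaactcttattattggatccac
NRT2.1: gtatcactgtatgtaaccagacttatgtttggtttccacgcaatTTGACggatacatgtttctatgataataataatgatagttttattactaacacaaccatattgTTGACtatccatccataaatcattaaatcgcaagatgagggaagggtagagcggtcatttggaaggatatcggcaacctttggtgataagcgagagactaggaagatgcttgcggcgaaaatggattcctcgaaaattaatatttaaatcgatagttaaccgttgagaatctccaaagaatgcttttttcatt
The core was present in the windows of NRT1.8 and NRT2.1 and absent from those of NRT1.5 and NRT2.6, so that 1 gene that was higher after chitin and 1 that was lower held it. In NRT1.8 the match began 47 bases before the gene start, on the opposite strand. In NRT2.1 the matches began 256 and 193 bases before it, on the strand of the gene. Over all members, 5 of 8 windows held the core (NRT1.7, NRT1.8, NRT2.1, NIA1 and NIA2), against 50.4% of the 26711 windows of the same length upstream of annotated genes. Searched on both strands, the GCC-box GCCGCC was in none of the 8 windows (2.24% of all windows), the G-box CACGTG in none (7.18%), and the nitrate-responsive element of the NLP type in none (0.0187%). The last pattern matched only 5 of all 26711 windows and was absent from that of the nitrite reductase gene NIR1. Its absence from the members therefore says little. A match is a string of letters in this window and not a binding site.

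Levels are given as CPM, a gene's reads scaled to a common library total with TMM factors, in the order of replicates 1, 2 and 3. Differences are given on the log2 scale. A gene was called where its adjusted p from edgeR's quasi-likelihood test over 20994 genes was below 0.05. Since each group has 3 libraries, ± after a mean is the SD over n = 3 and ± after a log2 difference is the SE of the fit. Whether the libraries of 2 groups overlap is given as a description. The share of all genes without overlap was not determined, for treatments or for genotypes.

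**Figure D1:**
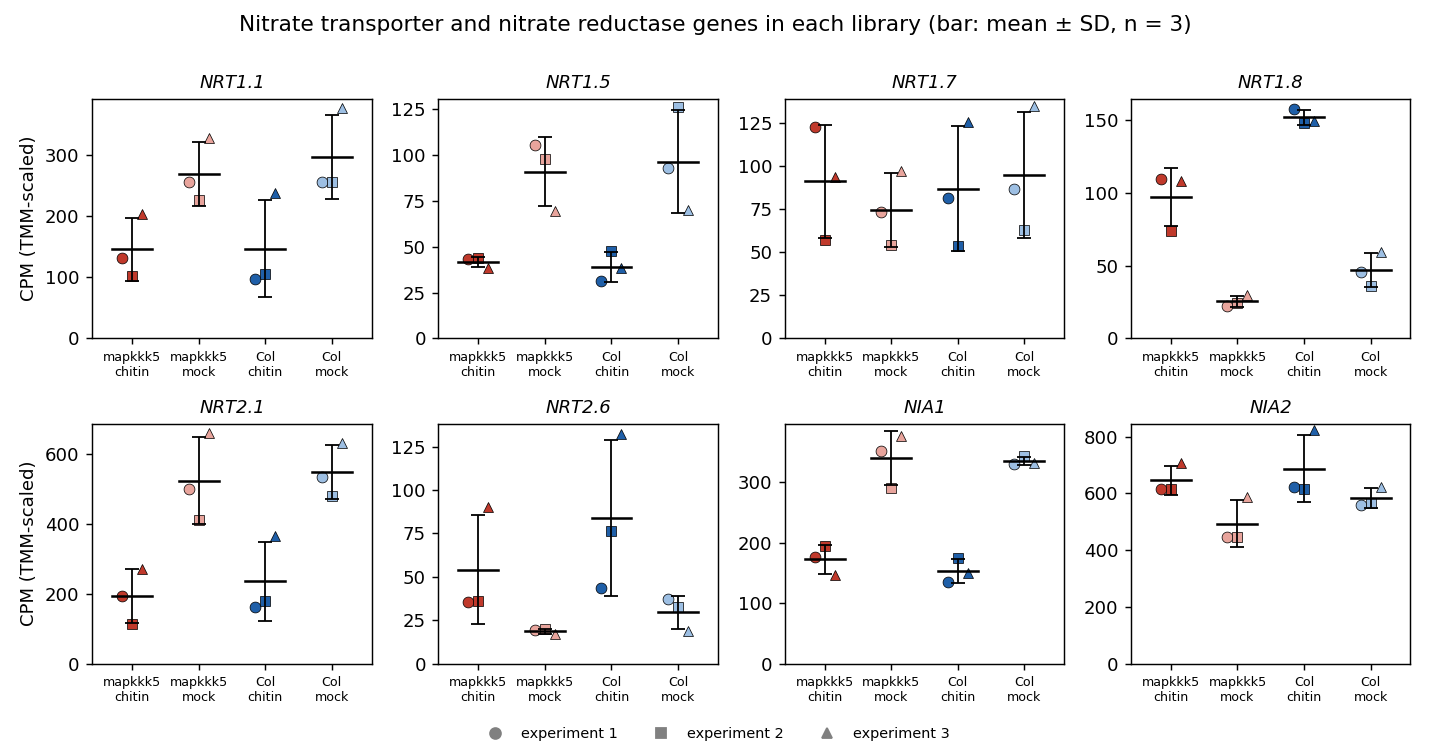
Level of each of the 8 genes in each library (TMM-scaled CPM, linear axis from 0), with groups in the order mapkkk5 chitin, mapkkk5 mock, Col chitin and Col mock; symbols mark the experiment, and bars the mean ± SD of 3 libraries. NRT1.8 is the gene whose mapkkk5 libraries all lie below the Col libraries of the same treatment.

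Chitin was followed by lower transcript levels of NRT2.1, NRT1.1, NRT1.5 and NIA1, and by higher levels of NRT1.8 and NRT2.6. In mapkkk5 seedlings 6 of the 8 members were called in chitin against mock, 2 higher and 4 lower, and in Col seedlings the same 6 were called, again 2 higher and 4 lower. Chitin moved a large part of the transcriptome, so that 34.8% of all tested genes were called in mapkkk5 (19.1% higher, 15.7% lower) and 38.5% in Col (21.2% higher, 17.3% lower). The members were chosen with such results known, and nothing is read from their share against these backgrounds. Without the experiment as a block, NRT1.7 and NIA2 were called in neither genotype. With it, NIA2 was called in both, as given below with the shares of all genes. Bulk RNA from whole seedlings cannot tell fewer cells of a type apart from less RNA per cell.

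NRT2.1 (AT1G08090, chr1:2524023-2526322, plus strand, 3 exons merged over transcripts) encodes the main high-affinity nitrate carrier of roots. It had 194, 115 and 270.1 CPM in mapkkk5 chitin libraries, against 499, 411 and 658 CPM in mapkkk5 mock libraries. After chitin, Col libraries had 161, 180.1 and 365 CPM, against 534, 478 and 631 CPM after mock. Chitin and mock libraries did not overlap in either genotype. The log2 difference was -1.44 ± 0.33 in mapkkk5 and -1.22 ± 0.32 in Col, and both were called. The library of experiment 3 was the highest of its group in all 4 groups, and without experiment 1 the call in Col was lost (-1.03).

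NRT1.1 (AT1G12110, chr1:4105223-4109601, plus strand, 5 exons) encodes a carrier of dual affinity that also acts as a nitrate sensor. Its levels were 132, 103 and 203 CPM in mapkkk5 chitin libraries, against 256, 226 and 328 CPM in mapkkk5 mock libraries. In Col they were 98.0, 105 and 238 CPM after chitin, against 257, 257 and 377 CPM after mock. As with NRT2.1, experiment 3 gave the highest library of every group, and the chitin libraries lay below the mock libraries in both genotypes. The log2 difference was -0.88 ± 0.32 in mapkkk5 and -1.01 ± 0.32 in Col. In fits without a block, this call was lost in more settings than any other of the 6. In mapkkk5 it was lost with DESeq2 (-0.89, where 35.7% of all genes were called). There it was also lost without any of 7 single libraries, where the log2 difference lay between -0.68 and -1.0. In Col it was lost without chitin library 1 (-0.79), chitin library 2 (-0.82) or mock library 3 (-0.80). With the experiment as a block, the SE was smaller, and the difference was -0.93 ± 0.14 in mapkkk5 and -1.09 ± 0.14 in Col.

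NRT2.6 (AT3G45060, chr3:16477561-16479559, minus strand, 2 exons) belongs to the same carrier family as NRT2.1 and differed in the opposite direction. It had 35.7, 36.3 and 90.2 CPM in mapkkk5 chitin libraries, against 19.2, 19.7 and 17.1 CPM in mapkkk5 mock libraries. Its levels in Col were 43.4, 76.3 and 132 CPM after chitin, against 37.1, 32.8 and 18.8 CPM after mock. The groups did not overlap in either genotype, but in Col the lowest chitin library was close to the highest mock library. The log2 difference was 1.53 ± 0.41 in mapkkk5 and 1.51 ± 0.40 in Col. Its size varied between experiments, from 0.88 to 2.4 in mapkkk5 and from 0.23 to 2.82 in Col, with the largest value in experiment 3 in both genotypes. Without the chitin library of experiment 3 the call was lost, with a log2 difference of 0.95 in mapkkk5 and 1.02 in Col. With the experiment as a block, the difference was 1.43 ± 0.37 in mapkkk5 and 1.37 ± 0.36 in Col.

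Within a library, the ratio of NRT2.6 to NRT2.1 per kb of exon was 0.204, 0.350 and 0.369 in mapkkk5 chitin libraries, against 0.0423, 0.0529 and 0.0287 in mapkkk5 mock libraries. In Col the ratio was 0.297, 0.468 and 0.401 after chitin, against 0.0767, 0.0757 and 0.0328 after mock. Both genotypes thus had a higher share of NRT2.6 in every chitin library than in any mock library. Within a genotype this follows from the separate levels of the 2 genes and is no further result. The coding sequences of the 2 genes are 66.2% identical, with no identical run longer than 18 bases. NRT2.2, the neighbour of NRT2.1, shares 88.1% of its coding sequence with it and an identical run of 170 bases, and had 11 reads over all 12 libraries.

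NRT1.5 (AT1G32450, chr1:11715147-11719988, minus strand, 6 exons) encodes the carrier that loads nitrate into the root xylem. It had 43.1, 43.7 and 38.3 CPM in mapkkk5 chitin libraries, against 105, 97.9 and 69.4 CPM in mapkkk5 mock libraries. Col libraries had 31.5, 47.6 and 38.1 CPM after chitin, against 93.0, 126 and 69.8 CPM after mock. The log2 difference was -1.13 ± 0.21 in mapkkk5 and -1.30 ± 0.21 in Col. The chitin libraries lay below the mock libraries in both genotypes, and the calls held in every alternative setting.

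NRT1.8 (AT4G21680, chr4:11517353-11519805, minus strand, 4 exons) encodes the carrier that takes nitrate back out of the xylem sap, and it differed in the opposite direction. It had 109.9, 74.1 and 108 CPM in mapkkk5 chitin libraries, against 22.0, 24.4 and 29.9 CPM in mapkkk5 mock libraries. After chitin, Col libraries had 158, 148 and 149.8 CPM, against 45.8, 35.9 and 59.6 CPM after mock. The log2 difference was 1.94 ± 0.19 in mapkkk5 and 1.69 ± 0.19 in Col, the largest increase among the 8 genes in both genotypes. Its calls also held in every alternative setting, and each experiment gave a log2 difference of at least 1.6 in mapkkk5 and at least 1.33 in Col.

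The ratio of NRT1.8 to NRT1.5 per kb of exon within a library was 2.59, 1.72 and 2.87 in mapkkk5 chitin libraries, against 0.212, 0.253 and 0.437 in mapkkk5 mock libraries. In Col it was 5.09, 3.16 and 3.98 after chitin, against 0.50, 0.289 and 0.865 after mock. NRT1.5 was therefore the more abundant of the pair in every mock library and NRT1.8 in every chitin library. That the ratio did not overlap between treatments within a genotype follows from the separate levels of the 2 genes. Both genes overlap another gene on the opposite strand, and the sources used here do not give the strand setting of the counting. NRT1.5 shares 16 bases with AT1G32440, which fell, with log2 differences of -0.34 in mapkkk5 (adjusted p = 0.031, edgeR) and -0.31 in Col (adjusted p = 0.045, edgeR). NRT1.8 shares 44 bases with AT4G21670, which was not called and had a log2 difference of -0.02 in both. AT1G32440 had 43.6 to 67.9 CPM and AT4G21670 had 26.5 to 36.9 CPM over the 12 libraries.

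**Figure D2:**
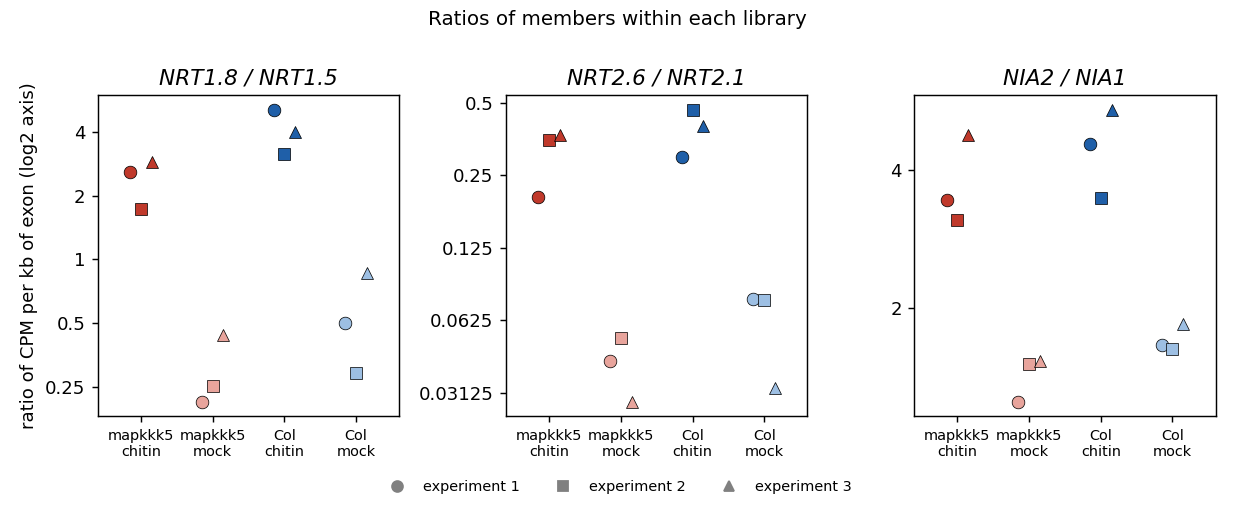
Ratio of the levels of 2 members within each library (CPM per kb of exon, log2 axis), for NRT1.8 over NRT1.5, NRT2.6 over NRT2.1 and NIA2 over NIA1; groups run mapkkk5 chitin, mapkkk5 mock, Col chitin, Col mock, and symbols mark the experiment. In each panel every chitin library lies above every mock library of both genotypes. In every panel this follows, within a genotype, from the levels of the single genes.

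NRT1.7 (AT1G69870, chr1:26315787-26320233, plus strand, 4 exons) encodes a carrier that loads nitrate into the phloem of older leaves. It had 123, 57.2 and 93.6 CPM in mapkkk5 chitin libraries, against 73.4, 54.0 and 96.9 CPM in mapkkk5 mock libraries. Its levels in Col were 81.3, 53.9 and 126 CPM after chitin, against 86.8, 62.8 and 135 CPM after mock. Groups overlapped in both genotypes, and the log2 difference was 0.29 ± 0.35 in mapkkk5 and -0.12 ± 0.35 in Col. Experiment 2 gave the lowest library of every group.

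NIA1 (AT1G77760, chr1:29235721-29239484, minus strand, 4 exons) and NIA2 (AT1G37130, chr1:14158452-14161938, plus strand, 3 exons) encode the 2 nitrate reductases of Arabidopsis, of which NIA2 is known to give most of the enzyme activity of seedlings. NIA1 had 176, 194 and 146 CPM in mapkkk5 chitin libraries, against 351, 290.5 and 377 CPM in mapkkk5 mock libraries. Col libraries had 134, 174 and 149.9 CPM after chitin, against 330.2, 342 and 331 CPM after mock. The log2 difference of NIA1 was -0.98 ± 0.14 in mapkkk5 and -1.13 ± 0.14 in Col; its libraries did not overlap between chitin and mock, and both calls held in every alternative setting.

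NIA2 had 617, 616 and 705 CPM in mapkkk5 chitin libraries, against 445, 447 and 588 CPM in mapkkk5 mock libraries. After chitin, Col libraries had 622, 616 and 824 CPM, against 559, 566 and 623 CPM after mock. Chitin and mock libraries did not overlap in mapkkk5 and overlapped narrowly in Col. The log2 difference was 0.39 ± 0.14 in mapkkk5 and 0.24 ± 0.14 in Col, and neither was called. With the experiment as a block both were called, at 0.40 ± 0.08 in mapkkk5 and 0.23 ± 0.08 in Col, where 47.1% and 50.3% of all genes were called in the same fits.

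The ratio of the reductases per kb of exon did not overlap between treatments in either genotype. This, too, follows from the separate levels of the 2 genes and is no further result. In Col the NIA2 libraries overlapped narrowly, but those of NIA1 lay far apart. NIA2 over NIA1 was 3.45, 3.12 and 4.77 in mapkkk5 chitin libraries, against 1.25, 1.51 and 1.54 in mapkkk5 mock libraries. In Col it was 4.56, 3.48 and 5.41 after chitin, against 1.67, 1.63 and 1.85 after mock. Their coding sequences are 72.2% identical and share no identical run longer than 20 bases.

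The order of the 8 levels per kb of exon was the same in both mock groups and changed after chitin. In mock it ran NRT2.1, NIA2, NRT1.1, NIA1, NRT1.5, NRT1.7, NRT1.8, NRT2.6, from 248 ± 59.2 CPM per kb for NRT2.1 to 9.76 ± 0.71 CPM per kb for NRT2.6 in mapkkk5, and from 259 ± 36.7 to 15.4 ± 5.01 CPM per kb in Col. After chitin NIA2 led in both genotypes, with 202 ± 16.0 CPM per kb in mapkkk5 and 215 ± 37.0 CPM per kb in Col, and NRT1.5 was last, with 18.8 ± 1.33 and 17.6 ± 3.66 CPM per kb. Between them in mapkkk5 came NRT2.1, NRT1.1, NIA1, NRT1.8, NRT1.7 and NRT2.6, and in Col NRT2.1, NRT1.8, NRT1.1, NIA1, NRT2.6 and NRT1.7. Many neighbours in these orders overlapped. In mapkkk5 chitin libraries only NIA2 was clear of the gene below it. In mapkkk5 mock libraries the clear steps were below NRT2.1, NIA1 and NRT1.7. In Col chitin libraries they were below NIA2, NRT2.1 and NRT1.7, and in Col mock libraries below NRT2.1, NIA2, NRT1.1 and NIA1.

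**Figure D3:**
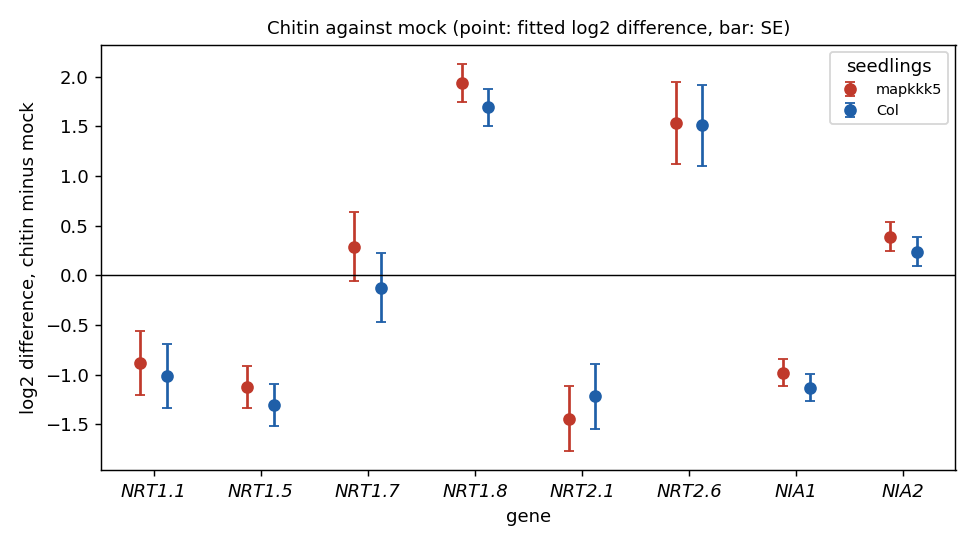
Fitted log2 difference of chitin minus mock for each of the 8 genes, in mapkkk5 (red, left) and Col (blue, right), with bars for the SE. The values of the 2 genotypes lie within 0.41 of each other for every gene, and only those of NRT1.7 differ in sign.

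Whether the mutation changed these responses was asked by comparing the genotypes within each treatment and by the difference of the 2 chitin responses. Without a block, edgeR called no member in mapkkk5 against Col in either treatment. It called 0.0714% of all genes after chitin and 0.0191% after mock. With a block, it called NRT1.8 in both treatments, as given below with the shares of all genes. No member was called for the difference of responses either, where edgeR called 0 of the 20994 genes (0.0% of them; 275 had an unadjusted p below 0.05, and DESeq2 called 6). Without a block, differences of responses, mapkkk5 minus Col, ran from -0.22 ± 0.45 for NRT2.1 to 0.41 ± 0.49 for NRT1.7. With the experiment as a block, these 2 were -0.19 ± 0.22 and 0.42 ± 0.22. No member was called in that fit, where 2 of the 20994 genes were. Changes of this size could not be told from 0 in either fit.

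NRT1.8 was the only member whose libraries did not overlap between genotypes. The share of all tested genes without such overlap was not determined. Its 22.0 to 29.9 CPM in mapkkk5 mock libraries lay below the 35.9 to 59.6 CPM of Col mock libraries, and its 74.1 to 109.9 CPM in mapkkk5 chitin libraries lay below the 148 to 158 CPM of Col chitin libraries. The log2 difference of mapkkk5 minus Col was -0.89 ± 0.19 in mock and -0.64 ± 0.18 in chitin. By experiment it was -1.06, -0.56 and -0.99 in mock and -0.53, -1.0 and -0.47 in chitin. That all are negative follows from the ranges above and is no further result. In edgeR without a block neither was called. With the experiment as a block both were, at -0.87 ± 0.14 in mock, where 0.0333% of all genes were called, and at -0.66 ± 0.13 in chitin, where 0.457% were. DESeq2 also called it in mock (-0.90; 0.0333% of all genes called).

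NRT2.6 was also lower in each of the 3 experiments in mapkkk5, with log2 differences of -0.95, -0.73 and -0.13 in mock and of -0.28, -1.07 and -0.55 in chitin. Its groups overlapped between genotypes in both treatments, and the fitted values, -0.66 ± 0.41 in mock and -0.64 ± 0.39 in chitin, were called in no setting. For the other 6 members the libraries of the genotypes overlapped in both treatments, and the log2 differences lay between -0.34 and 0.02 in mock and between -0.29 and 0.17 in chitin.

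MAPKKK5 itself checks the labels. It had 24.4 ± 9.85 CPM in mapkkk5 chitin libraries and 4.33 ± 0.83 CPM in mapkkk5 mock libraries, against 40.9 ± 3.96 CPM in Col chitin libraries and 25.2 ± 3.19 CPM in Col mock libraries. The libraries labelled mapkkk5 thus held reads of the gene, and more of them after chitin. Total counts were 15455836 to 20179428 reads per library, at which 3 reads correspond to 0.152 to 0.200 CPM, far below every member; this covers counting error only.

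The rest of the pathway was described through 4 lists of 82 other genes, of which 78 were tested. After chitin, 22 rose and 15 fell in mapkkk5, and 22 rose and 14 fell in Col, so that 47.4% of the tested list genes changed in mapkkk5 and 46.2% in Col, beside 34.8% and 38.5% of all tested genes. The lists are other nitrate transport, nitrite reduction and the supply of the reductases, ammonium uptake and assimilation, and nitrate signalling. Median log2 differences over the 4 lists were 0.07 in mapkkk5 and 0.05 in Col, against medians over all tested genes of -0.0038 in mapkkk5 and 0.0027 in Col. The lists, too, were chosen with earlier results of these data known. Nothing is read from their shares or medians against those of all genes. Adjusted p-values of list genes come from the edgeR fit over the whole table.

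Of the other nitrate transport genes, 16 of 19 were tested. In mapkkk5 1 rose and 3 fell, with a median log2 difference of -0.16 over the list, and in Col 2 rose and 4 fell, with a median of -0.13. NRT2.4, a high-affinity carrier of low-nitrate roots, fell, with log2 differences of -2.02 ± 0.34 in mapkkk5 (adjusted p = 0.00054) and -1.59 ± 0.37 in Col (adjusted p = 0.0039), at low levels of 0.73 ± 0.34 CPM in mapkkk5 chitin libraries and 3.02 ± 0.85 CPM in mapkkk5 mock libraries. NRT2.3 fell, with log2 differences of -1.21 ± 0.30 in mapkkk5 (adjusted p = 0.0070) and -1.17 ± 0.29 in Col (adjusted p = 0.0064). CLC-B, a chloride-channel family member, fell, with log2 differences of -0.94 ± 0.17 in mapkkk5 (adjusted p = 0.00092) and -0.89 ± 0.17 in Col (adjusted p = 0.0011). NRT1.4, which holds nitrate in the leaf petiole, fell in Col, with a log2 difference of -0.50 ± 0.17 (adjusted p = 0.028), and had -0.28 ± 0.17 in mapkkk5 (adjusted p = 0.21), which passed with the experiment as a block (-0.28, adjusted p = 0.039). NRT1.2, a low-affinity root carrier, rose by 0.44 ± 0.11 in mapkkk5 (adjusted p = 0.0078) and 0.39 ± 0.11 in Col (adjusted p = 0.013). The anion channel gene SLAH3 rose by 0.52 ± 0.14 in Col (adjusted p = 0.0087) and had 0.26 ± 0.14 in mapkkk5 (adjusted p = 0.17), which passed with a block (0.26, adjusted p = 0.033).

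NRT3.1 encodes the partner protein that NRT2.1 needs for transport, and was called in neither genotype. It had 186 ± 42.6 CPM in mapkkk5 chitin libraries and 161 ± 24.1 CPM in mapkkk5 mock libraries, with a log2 difference of 0.21 ± 0.20 (adjusted p = 0.45). In Col it had 219.9 ± 58.5 CPM after chitin and 164 ± 23.6 CPM after mock, with a log2 difference of 0.42 ± 0.20 (adjusted p = 0.11); with the experiment as a block this passed, at 0.40 (adjusted p = 0.0025). NRT2.2 was too low to test, with at most 2 reads in a library, and NRT1.6 had 0 reads.

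Downstream of the reductases, NIR1, the single nitrite reductase gene, fell in both genotypes, as did 3 genes that support it. The supply genes did not all fall: RFNR1, FD3 and G6PD2 of the same list were called in neither genotype. RFNR1 had log2 differences of 0.003 ± 0.15 in mapkkk5 and 0.10 ± 0.15 in Col. With the experiment as a block, FD3 passed in mapkkk5 (-0.21, adjusted p = 0.044). NIR1 had 273 ± 57.3 CPM in mapkkk5 chitin libraries, against 475 ± 71.8 CPM in mapkkk5 mock libraries (log2 difference -0.80 ± 0.16, adjusted p = 0.0014). In Col it had 247 ± 19.0 CPM after chitin, against 437 ± 46.2 CPM after mock (-0.82 ± 0.16, adjusted p = 0.00097). RFNR2, a root ferredoxin-NADP reductase, fell, with log2 differences of -1.21 ± 0.16 in mapkkk5 (adjusted p = 8.1e-05) and -1.06 ± 0.16 in Col (adjusted p = 0.00021). The plastid glucose 6-phosphate dehydrogenase gene G6PD3 fell, with log2 differences of -0.87 ± 0.17 in mapkkk5 (adjusted p = 0.0016) and -0.71 ± 0.17 in Col (adjusted p = 0.0054), and UPM1, which makes the siroheme precursor of nitrite reductase, fell, with log2 differences of -0.27 ± 0.10 in mapkkk5 (adjusted p = 0.045) and -0.31 ± 0.10 in Col (adjusted p = 0.021).

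Of the 6 tested genes for the molybdenum cofactor, which nitrate reductase carries, 5 rose in mapkkk5 and 4 in Col. CNX2 rose by 0.88 ± 0.09 in mapkkk5 (adjusted p = 9.3e-06) and 1.07 ± 0.09 in Col (adjusted p = 1.3e-06). CNX1, CNX5 and CNX6 rose in both genotypes, with log2 differences between 0.32 and 0.48 in mapkkk5 and between 0.46 and 0.61 in Col. CNX7 rose by 0.42 ± 0.13 in mapkkk5 (adjusted p = 0.023) and had 0.23 ± 0.13 in Col (adjusted p = 0.18), and CNX3 was called in neither genotype (0.03 ± 0.11 in mapkkk5 and 0.02 ± 0.11 in Col). Of the 13 genes of the list, all tested, 5 rose and 4 fell in mapkkk5 (median 0.00), and 4 rose and 4 fell in Col (median 0.08).

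Among 18 tested genes of ammonium uptake and assimilation, 5 rose and 5 fell in each genotype, with median log2 differences of -0.05 in mapkkk5 and -0.04 in Col. The glutamate dehydrogenase genes GDH1 and GDH2 rose, by 1.31 ± 0.15 and 1.34 ± 0.17 in mapkkk5 and by 1.61 ± 0.15 and 1.51 ± 0.17 in Col. The cytosolic glutamine synthetase gene GLN1;1 rose by 0.96 in mapkkk5 and 1.06 in Col, while GLN2, the plastid form, fell, with log2 differences of -0.46 in mapkkk5 and -0.43 in Col. Ammonium carriers changed in both directions. AMT2;1 rose by 1.1 ± 0.10 in mapkkk5 and 1.43 ± 0.10 in Col, and AMT1;1 by 0.88 ± 0.14 in mapkkk5 and 1.0 ± 0.14 in Col. AMT1;3 fell, with log2 differences of -1.93 ± 0.25 in mapkkk5, to 11.9 ± 2.99 CPM in chitin libraries against 45.5 ± 13.2 CPM in mock libraries, and of -2.07 ± 0.25 in Col. AMT1;2 fell, with log2 differences of -0.75 ± 0.16 in mapkkk5 and -1.08 ± 0.16 in Col, and the asparagine synthetase genes ASN2 and ASN3 fell in both genotypes. Adjusted p-values of the genes named here were at most 0.036 (edgeR).

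All 31 nitrate signalling genes were tested. In mapkkk5 11 rose and 3 fell (median 0.22), and in Col 11 rose and 1 fell (median 0.24). Under upper-quartile scaling, which moved the median of all genes to -0.09 in mapkkk5 and -0.11 in Col, these counts were 8 and 4 in mapkkk5 and 9 and 3 in Col. CPK10, a calcium-dependent kinase that acts on the NLP factors, rose by 0.80 ± 0.10 in mapkkk5 (adjusted p = 5.7e-05) and 1.03 ± 0.10 in Col (adjusted p = 5.3e-06). CBL1 and CIPK23, the calcium sensor and kinase that act on NRT1.1, rose by 0.55 ± 0.10 and 0.55 ± 0.13 in mapkkk5 and by 0.91 ± 0.11 and 0.65 ± 0.13 in Col. NLP7, a leading transcription factor of the nitrate response, and the kinase gene CIPK8 rose by 0.39 ± 0.10 and 0.41 ± 0.11 in mapkkk5 and by 0.55 ± 0.10 and 0.61 ± 0.11 in Col. The LBD genes, known as repressors of nitrogen-responsive genes, did not move as a group: LBD37 rose by 0.66 ± 0.11 in mapkkk5 (adjusted p = 0.00039) and 0.54 ± 0.11 in Col (adjusted p = 0.0013), while LBD39 fell, with log2 differences of -0.53 ± 0.12 in mapkkk5 (adjusted p = 0.0042) and -0.50 ± 0.12 in Col (adjusted p = 0.0057). HHO1 and NLP3 fell in mapkkk5, with log2 differences of -0.96 ± 0.32 and -0.92 ± 0.34 (adjusted p = 0.035 and 0.049), and were not called in Col, with -0.66 ± 0.33 and -0.22 ± 0.32; with a block HHO1 passed there too (-0.68, adjusted p = 0.015). Of the list genes named, NRT1.4, CLC-B, UPM1, CNX2, CNX5, CNX6, CNX7, G6PD3, GDH1, AMT1;1, CBL1 and CPK10 overlap another annotated gene, so their counts are uncertain to that extent.

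**Figure D4:**
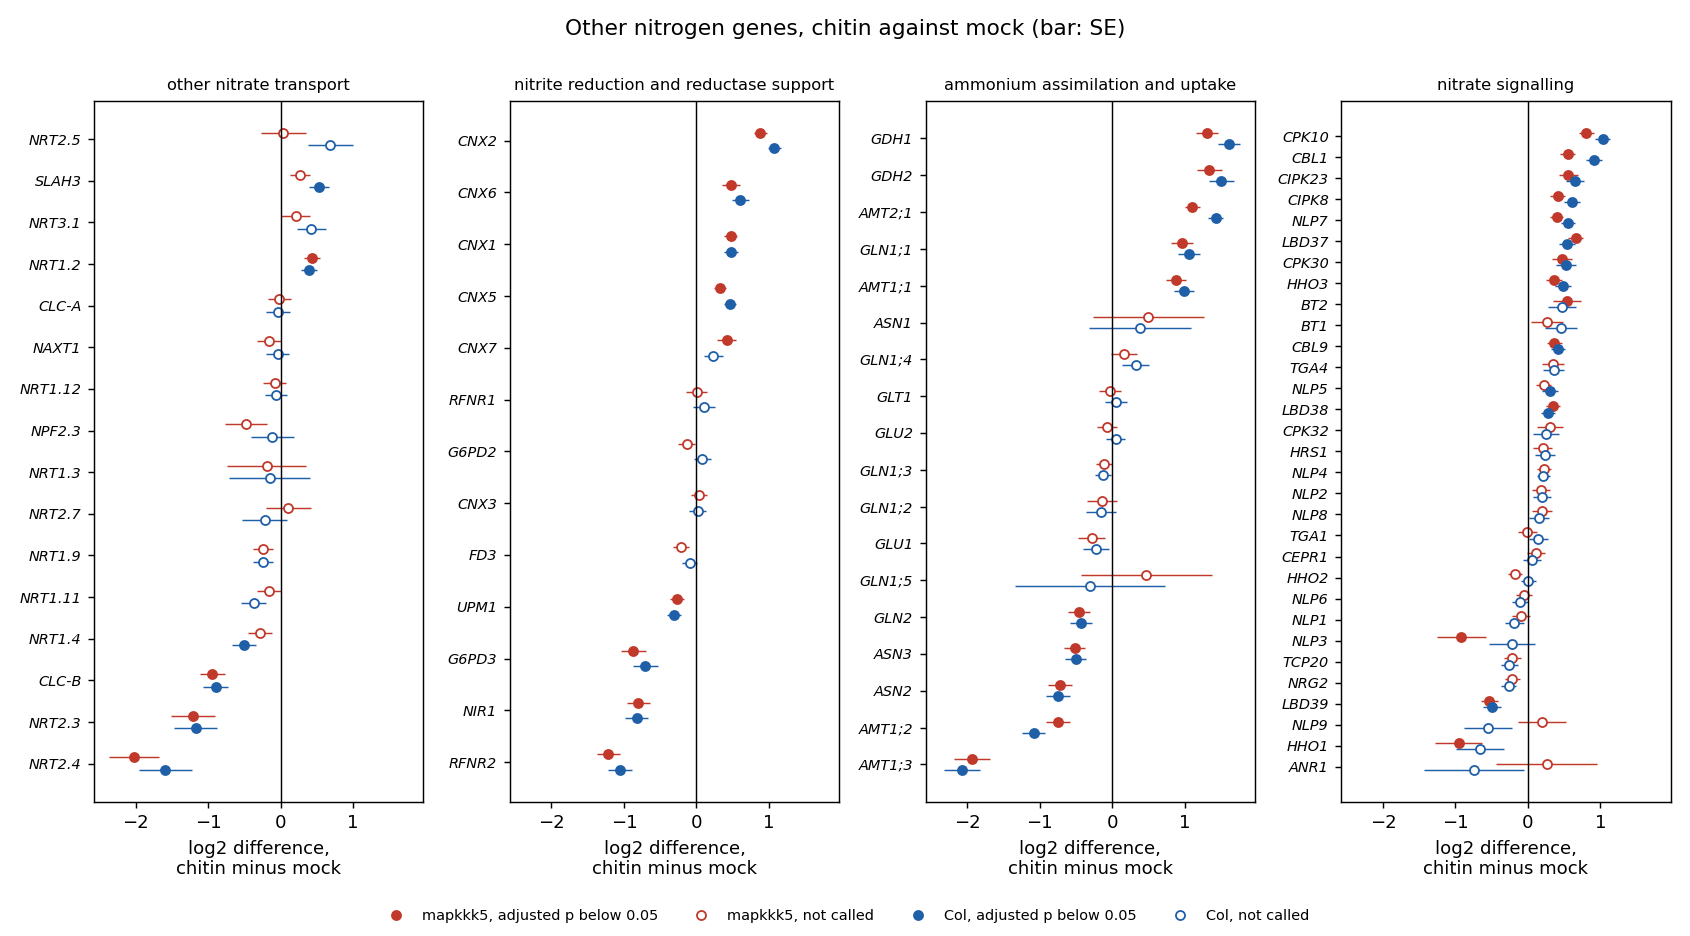
Log2 difference of chitin minus mock (point) with its SE (bar) for the 78 tested genes of the 4 pathway lists, in mapkkk5 (red, above) and Col (blue, below); filled points have an adjusted p below 0.05 and genes are ordered by the value in Col. Filled points lie on both sides of 0 in every panel, with 11 on the right among the signalling genes in each genotype.

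None of the 78 genes was called in mapkkk5 against Col after chitin or after mock, or for the difference of responses, with 8, 1 and 2 of them at an unadjusted p below 0.05 in edgeR. The smallest p-values belonged to CPK10 after chitin (-0.35 ± 0.10, adjusted p = 0.59), to NRT2.4 after mock (0.73 ± 0.31, adjusted p = 1.0) and to CBL1 for the difference (-0.36 ± 0.15, adjusted p = 1.0).

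Markers of root and of green tissue were detected in every group, as the label of whole seedlings has it. Of 14 root layer markers, 0 rose and 1 fell in mapkkk5, and 4 rose and 1 fell in Col; the one that fell was PYK10, a root beta-glucosidase of the ER bodies (-1.19 ± 0.26 in mapkkk5, adjusted p = 0.0029, and -1.05 ± 0.26 in Col, adjusted p = 0.0056). Under upper-quartile scaling 0 rose and 2 fell in mapkkk5, and 2 rose and 2 fell in Col. With the experiment as a block, 1 rose and 2 fell in mapkkk5, and 5 rose and 2 fell in Col. The summed level of the list was 1531 to 2246 CPM in mapkkk5 chitin libraries and 3155 to 4876 CPM in mapkkk5 mock libraries, and 1698 to 3005 CPM in Col chitin libraries and 3690 to 5389 CPM in Col mock libraries. Without PYK10, chosen after its values were seen, the other 13 summed to 219 to 288 CPM in mapkkk5 chitin libraries and 208 to 232 CPM in mapkkk5 mock libraries, and to 231 to 302 CPM in Col chitin libraries and 198 to 232 CPM in Col mock libraries.

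The stele markers PHO1, SKOR and HKT1 were set beside NRT1.8, a gene of the xylem parenchyma. Their summed level was 119 to 135 CPM in mapkkk5 chitin libraries, below 165 to 172 CPM in Col chitin libraries, while the mock groups overlapped, with 110 to 129.9 CPM in mapkkk5 and 121 to 152 CPM in Col. After chitin 1 of the 3 fell in mapkkk5 (SKOR) and 1 rose in Col (PHO1, not called under RLE or upper-quartile scaling or without the filter on low counts). None of the 3 was called between genotypes without a block, and with a block PHO1 was called lower in mapkkk5 after chitin (-0.42). Of the 3 phloem markers SUC2 rose in both genotypes, and the sums were 129 to 157 CPM in mapkkk5 chitin libraries and 108 to 134 CPM in mapkkk5 mock libraries, and 150.0 to 182 CPM in Col chitin libraries and 127 to 136 CPM in Col mock libraries. Of 3 markers of green tissue, RBCS1A fell in Col (-0.54 ± 0.19, adjusted p = 0.039) and none was called in mapkkk5, and the list's median log2 difference was -0.35 in mapkkk5 and -0.54 in Col. With a block RBCS1A and LHCB1.2 were called lower in both genotypes and LHCB2.1 higher in mapkkk5. The green markers summed to 4801 to 6958 CPM in mapkkk5 chitin libraries and 6265 to 8612 CPM in mapkkk5 mock libraries, which overlapped, and to 5099 to 5724 CPM in Col chitin libraries and 7548 to 8122 CPM in Col mock libraries, which did not. Of 4 stomatal markers none was called, and their sums overlapped between treatments in both genotypes, within 21.3 to 34.4 CPM. No marker was at 0 reads in a group, and their part in the results on the members was not tested.

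The genes whose pattern over the 12 libraries was nearest to each member were found by the root mean square of the difference in log2 CPM, after each gene was centred on its mean. For NRT1.1 the nearest was XTH33 (0.13), for NRT2.1 TLL1 (0.16), for NRT1.7 SQE6 (0.16), and for NRT1.5 AT1G06980 (0.19). NRT1.8 was nearest to PPDK (0.20), followed by DTX1 (0.22) and CYP89A9 (0.24). NIA1 was nearest to NOA1 (0.11), and NIA2 to AT1G56520 (0.076) and AAE7 (0.086). Distances depend on the spread of the member itself, so they do not rank the members by closeness. That spread was 0.65 for NRT1.1, 0.81 for NRT2.1, 0.46 for NRT1.7 and 0.65 for NRT1.5. It was 1.01 for NRT1.8, 0.55 for NIA1 and 0.23 for NIA2. The neighbours of NRT2.6 were FRK1 (0.38), AT2G42360 (0.39) and NADP-ME2 (0.40), against a spread of its own of 0.92. These are descriptions of 12 libraries in 4 groups, without a test.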

How the data were processed

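The authors deposited whole-number read counts per gene, not normalized, for 12 libraries of seedling RNA. Per the labels' protocols, poly(A) RNA was enriched and a directional kit was used. Tools named in the submitters' processing notes are TopHat2 2.0.10, HTSeq 0.6.1, cutadapt 1.5 and CASAVA 1.8.2, with the build TAIR10; the sources used here do not give the counting settings. The labels and the design text give the chitin dose in conflicting units, so it is not printed. Positions and sequences are from RefSeq TAIR10.1, which holds 31912 of the 32678 identifiers.

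Counts were tested with edgeR 4.0.16 (R 4.3.3): filterByExpr kept 20994 genes, TMM factors were 0.971 to 1.03, and 1 quasi-likelihood model held the 4 groups (8 residual degrees of freedom), with Benjamini-Hochberg adjustment over all genes tested and a threshold of 0.05. The 5 comparisons were chitin against mock in each genotype, mapkkk5 against Col in each treatment, and the difference of the chitin responses; they share libraries. The script was tested on simulated data. Alternatives were RLE and upper-quartile scaling, no filter, DESeq2 1.42.0, the replicate number as a block, and leaving out each library or experiment. The replicate numbers pair the samples: the design text speaks of 3 independent experiments, and in all 12 pairs of same-numbered libraries the deviations from the group means were correlated (r = 0.16 to 0.51). Calls are from the edgeR model without a block unless another setting is named, so they leave this pairing out. No label names separate cultures within an experiment, and p-values measure the spread between these libraries.

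The members and the lists were chosen with earlier results of these data known. Named list genes are, per list and chitin comparison, up to 4 raised and 4 lowered with the smallest p, besides NRT2.2, NRT3.1 and NIR1, which were always named, and some further called genes chosen after their values were seen. The identifier of NRT3.2 matched no row and was not analysed here. The nearest patterns are the 3 genes with the smallest root mean square difference in log2 CPM (prior count 2), of which those printed are the nearest 1 to 3.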

Additional observations from a re-analysis of the deposited data

How the results depend on the processing

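With RLE or upper-quartile scaling, no filter, DESeq2, a replicate block and leaving out libraries or experiments, no called member value changed direction: 771 member values moved by less than the SD over the 3 experiments and 29 by more. That SD comes from the same experiments, so leaving 1 of them out could hardly move a value beyond it. These counts therefore do not measure stability. A smaller move could still lose a call, as for NRT2.6 in Col without its chitin library 3 (from 1.51 to 1.02). The calls of NRT1.5, NRT1.8 and NIA1 in chitin against mock held throughout. Without single libraries or experiments, 4 to 7 members were called in mapkkk5 and 4 to 6 in Col for chitin against mock (6 each with all libraries), as were 23 to 36 and 28 to 38 pathway genes (37 and 36) and 4762 to 7403 and 5385 to 8412 genes in all (7308 and 8083). The same settings gave 0 to 23 genes in mapkkk5 against Col after chitin (15), 0 to 9 after mock (4) and 0 to 2 for the difference of responses (0). Genes called in mapkkk5 against Col numbered 7 with DESeq2 and 7 with a block after mock, and 23 without the filter, 62 with DESeq2 and 96 with a block after chitin. For the difference they numbered 1 without the filter, 6 with DESeq2 and 2 with a block. NRT1.8 was the 1 member called in mock with DESeq2 and with a block, and the 1 called in chitin with a block; the paired fit otherwise added NIA2 in both chitin comparisons and changed no other member call, while pathway genes called numbered 25 higher and 19 lower in mapkkk5 and 29 higher and 19 lower in Col. NIA2 in mapkkk5 was also called with DESeq2 (0.38), without the Col chitin library 3 (0.39) or the mapkkk5 mock library 3 (0.53), and without experiment 3 (0.47). NRT2.6 was not called without experiment 2 (1.79 in mapkkk5, 1.64 in Col), and NRT1.1 was not called without experiment 1 (-0.85 and -0.88) or experiment 2 (-0.80 and -0.93). Upper-quartile scaling gave 3347 genes higher and 4355 lower in mapkkk5 (4019 and 3289 with TMM), and 3583 higher and 5017 lower in Col (4458 and 3625). The cause of these shifts was not tested. Depth does not limit the members, which had at least 274 reads in every library, but 3 list genes were too low to test.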
